A study of Mus musculus with 6 samples.

Results

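The MHC class II presentation genes are 10 genes of the pathway by which a cell shows peptides to CD4 T cells: H2-Aa, H2-Ab1, H2-Eb1, H2-DMa, H2-DMb1, H2-DMb2, H2-Oa, H2-Ob, Cd74 and Ciita. They were chosen by name among the 27660 genes of a mouse oligonucleotide array, with earlier results of these data known. The genes were read from whole lungs of naïve male mice aged 8 weeks, 3 wild-type and 3 Nogo-A/B knockout. Nogo-A and Nogo-B are the longer proteins made from Rtn4, a reticulon gene, and the knockout lacks both by its label. The labels state no strain, promoter or treatment, and each lung is an individual biological replicate per the design text. The lungs are called wild type 11, 12 and 13 and knockout 1, 11 and 12, after the numbers in their titles. All 10 genes were on the array, with 16 probes, and 9 were found by the array's own gene names. Ciita was found through its accession, under the older symbol C2ta.

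Class II molecules are pairs of an alpha and a beta chain that are loaded with peptide in endosomes and carried to the surface of B cells, dendritic cells, macrophages and, in the lung, alveolar type 2 cells. The invariant chain, Cd74, escorts and blocks the new pair, and the catalyst H2-DM removes the last piece of that chain so that a peptide can bind, while H2-DO holds H2-DM back. Ciita is the coactivator that switches class II genes on. It binds no DNA itself and docks on a complex of RFX, CREB and NF-Y held by the X box and the Y box of class II promoters.

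The Y box carries the reversed CCAAT sequence of NF-Y. The 2 motifs searched here, on both strands, were ATGATG in the region of the X box and TGATTGG for the Y box. RefSeq promoters (GRCm38.p6) of 300 bases, from 250 before the start site to 50 after it, were used for 7 of the 10 members. Those of H2-Ab1, Cd74 and Ciita were not used, Cd74 having been left out before the search. The member counts below cover the 7 alone. TGATTGG stood in the promoters of 6 of the 7, and in 7.817% of the 32851 promoters in the table, while ATGATG stood in 11.166%. Both motifs, in that order on one strand with 10 to 40 bases between them and so without overlap, stood in 4 members and in 16 of all 32851 promoters (0.049%). The letters were chosen with the members' promoters in view, so these shares are a description. The promoters of these 4 members are shown for 60 bases on the strand of the gene, with both motifs in capitals.
H2-Eb1: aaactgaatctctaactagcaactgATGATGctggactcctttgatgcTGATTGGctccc
H2-DMb1: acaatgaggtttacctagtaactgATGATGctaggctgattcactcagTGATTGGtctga
H2-DMb2: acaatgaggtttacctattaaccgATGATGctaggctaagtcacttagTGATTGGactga
H2-Ob: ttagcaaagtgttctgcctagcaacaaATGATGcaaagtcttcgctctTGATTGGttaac

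These stretches lie, in GRCm38.p6 and all on the plus strand, at chr17:34305758-34305817 for H2-Eb1, chr17:34153080-34153139 for H2-DMb1, chr17:34145109-34145168 for H2-DMb2 and chr17:34238798-34238857 for H2-Ob. The space between the motifs was 17 bases in H2-Eb1, 18 in H2-DMb1 and H2-DMb2, and 15 in H2-Ob. H2-Aa and H2-Oa held TGATTGG without ATGATG at that distance, at 50 and 45 bases before the start site, and are shown with that motif in capitals.
H2-Aa: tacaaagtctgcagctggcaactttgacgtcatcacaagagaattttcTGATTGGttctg
H2-Oa: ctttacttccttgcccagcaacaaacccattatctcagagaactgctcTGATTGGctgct

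The H2-Aa stretch is at chr17:34287862-34287921 on the minus strand and the H2-Oa stretch at chr17:34092286-34092345 on the plus strand of the same build. Neither motif was found in the 2 promoters listed for H2-DMa. A match of letters is a description, and no match says only that these letters are not in the window.

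**Figure D1:**
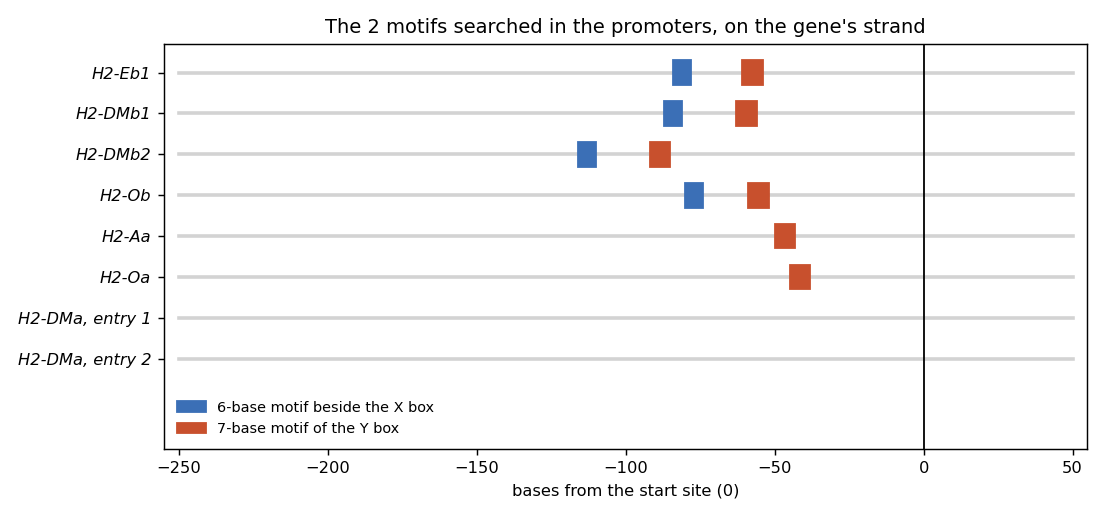
Positions of the 2 motifs on the gene's strand in the 8 promoters listed for 7 members, in bases from the start site at 0 (grey line, the 300 bases searched; blue, ATGATG, in the region of the X box; red, TGATTGG, the Y box motif). The Y box motif lay between 92 and 45 bases before the start site in 6 members, and in 4 of them the other motif lay 15 to 18 bases further upstream.

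Each signal is a log2 value from which that of the array's 75th percentile was subtracted, so that 1 is 2-fold above it, and differences are knockout minus wild type on the same scale. Scanning took 2 days. Day 1 held 1 wild-type lung (13) and 2 knockout lungs (1 and 11), and day 2 held the other lungs. Pairs of arrays from 1 day had correlations of 0.97 to 0.99 and pairs from different days 0.95 to 0.97, across genes, which are not independent replicates. Of the 20246 genes tested, 2188 (10.8%) differed between the days at an adjusted p under 0.05, with genotype in the model (limma). The 75th percentile of the signal ranged from 1146 to 2481, and the share of probes well above background from 68.9% to 78.0%. At the brightest Rtn4 probe, the targeted gene, the log2 signals were 1.59, 1.53 and 2.28 in wild type 11, 12 and 13 and 1.01, -0.78 and -1.87 in knockout 1, 11 and 12, so every knockout lung was below every wild-type lung. The sources used here do not say whether this probe lies in the deleted part, and it still gave signal well above background in the knockout. Another Rtn4 probe read -3.13, -2.98 and -2.35 in wild type 11, 12 and 13 and -8.12, -8.53 and -8.36 in knockout 1, 11 and 12, and was well above background in the 3 wild-type lungs only. Precision is limited throughout by the 6 arrays.

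All 10 class II genes were well above background on all 6 arrays, and none was saturated. All 10 had a fitted difference above 0, as had 54.5% of all genes tested, and no member passed the adjusted threshold of 0.05 (limma, adjusted p of 0.9998 for each). The median of their differences was 0.46, against 0.02 over all genes tested. Across all genes the same test called 0 (0%), and 193 (0.953%) had an unadjusted p under 0.05, among them 2 members, H2-Ab1 and H2-Eb1. Knockout and wild-type lungs did not overlap for 5 members, all with the knockout higher. Among them H2-DMb2 was read by a probe also listed for H2-DMb1, another of the 5. At the probe for H2-DMb2 alone the groups overlapped. Groups did not overlap for 4.21% of all genes, and for 2.74% with the knockout higher. The members are not independent of each other and were chosen with earlier results known, so these counts and those below are a description.

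Day and genotype were not balanced, since 2 of the 3 knockout lungs were scanned on day 1 and 2 of the 3 wild-type lungs on day 2. With scan day as a block the members' median was 0.42, and within the days it was 0.32 on day 1 and 0.59 on day 2. Over all genes tested the medians within the days were -0.04 and 0.09. Slide 1 held wild type 13 and knockout 1, slide 2 knockout 11, and slide 3 the lungs of day 2. On slide 1, knockout 1 minus wild type 13 ranged from 0.01 for H2-DMa to 0.72 for H2-Oa. It was 0.06 for H2-Aa, 0.07 for H2-Eb1 and 0.05 for H2-DMb2. With slide as a block the members' median was 0.36, against 0.05 over all genes. Within both days 9 of the 10 members were higher in the knockout, against 22.1% of all genes, and the exception was Cd74. Again no gene passed the adjusted threshold with the block (0%, limma), and 1 member, H2-Ab1, was higher at an unadjusted p under 0.05, against 0.929% of all genes. In bulk lung RNA, more or fewer cells of a type and more or less RNA per cell cannot be told apart.

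**Figure D2:**
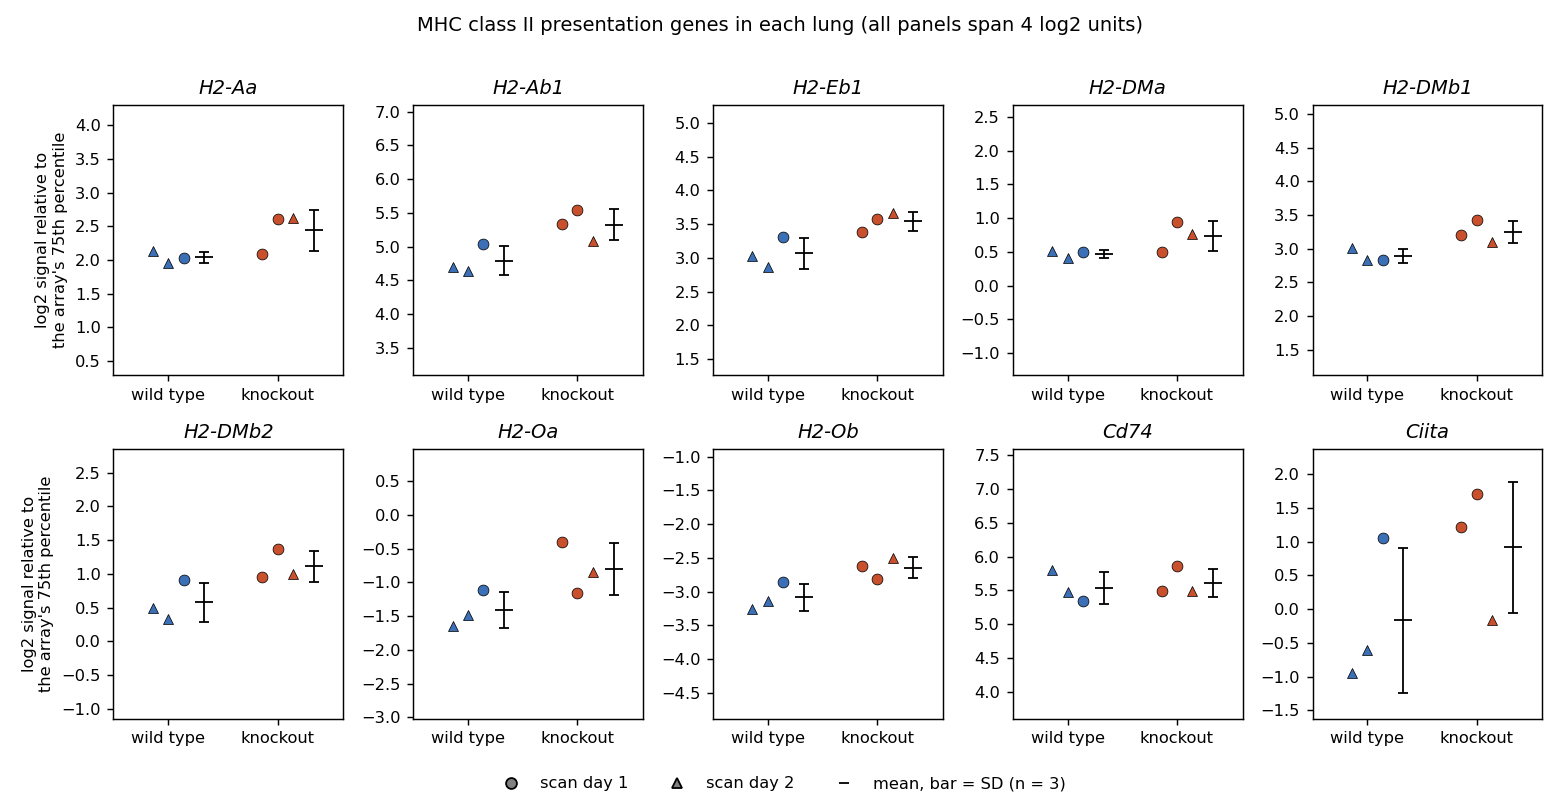
Log2 signal of each of the 10 class II genes in the 6 lungs, relative to the array's 75th percentile (blue, wild type; red, knockout; circles, scan day 1; triangles, scan day 2; black bars, mean and SD of 3 lungs). The 3 knockout lungs sit above the 3 wild-type lungs for H2-Ab1, H2-Eb1, H2-DMb1, H2-DMb2 (at a probe also listed for H2-DMb1) and H2-Ob. The Ciita values separate by scan day, and levels of different genes are not comparable.

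H2-Aa encodes the alpha chain of the I-A molecule, and its probe lies at chr17:32362310-32362369 (build mm7, as all probe positions here). The log2 signals were 2.13, 1.96 and 2.04 in wild type 11, 12 and 13 and 2.09, 2.61 and 2.63 in knockout 1, 11 and 12. Knockout 11 and 12 were above all wild-type lungs, while knockout 1 lay among them. The difference was 0.40 (SE 0.20), a 1.32-fold ratio with a 95% interval of 0.938 to 1.86 that holds 1. Day 1 alone gave 0.31 and day 2 alone 0.59. Its other probe differed by 0.32 (SE 0.18).

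H2-Ab1, the beta chain that pairs with it, had log2 signals of 4.70, 4.64 and 5.04 in wild type 11, 12 and 13 and of 5.34, 5.55 and 5.09 in knockout 1, 11 and 12. The groups did not overlap, although knockout 12 and wild type 13 were close, and the lungs of day 1 were the higher ones within each genotype. The difference was 0.53 (SE 0.20), a 1.44-fold ratio (95% interval 1.02 to 2.04), with an unadjusted p of 0.0396 in the limma fit across all genes. With scan day as a block it was 0.41 (SE 0.14, unadjusted limma p of 0.0289), and the value within each of the 2 days was 0.41.

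The 4 probes of H2-Ab1 allow the same gene to be read at different places. The brightest, A_52_P683598, lies at chr17:32346939-32346998 on the plus strand, A_51_P215237 at chr17:32345268-32345327 and A_51_P215242 at chr17:32342603-32342662. The first of the other probes, A_51_P215237, was printed 10 times on each array and differed by 0.57 (SE 0.24). A_51_P215242 differed by 0.44 (SE 0.27), and its groups overlapped because wild type 13, at 2.45, was above knockout 1 at 2.15 and knockout 12 at 2.42. The last, A_52_P570717, has no position in the array files and differed by 0.58 (SE 0.39). Its log2 signals were -0.18, -0.14 and 0.93 in wild type 11, 12 and 13 and 0.82, 1.22 and 0.33 in knockout 1, 11 and 12. They separated the days without overlap, by -0.89 (SE 0.19) for day 2 minus day 1, whereas the other 3 probes differed between days by -0.36, -0.35 and -0.35. Adjusting for the day brought the genotype differences of the 4 probes to 0.41, 0.45, 0.32 and 0.28, in the order given here.

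A_51_P215242 and A_52_P570717 share 31 bases and are printed whole, with capitals at the 2 positions of the shared stretch where they differ.
A_51_P215242: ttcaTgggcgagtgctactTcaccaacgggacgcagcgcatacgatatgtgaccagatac
A_52_P570717: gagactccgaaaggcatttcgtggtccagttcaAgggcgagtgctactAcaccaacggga

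Counted from the first base of A_51_P215242, the substitutions are T5A and T20A, with the base of that probe first. The array files tie A_51_P215242 to the RefSeq transcript of H2-Ab1 and A_52_P570717 only to other database entries for the gene. Which of the sequences these mice carry was not tested.

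**Figure D3:**
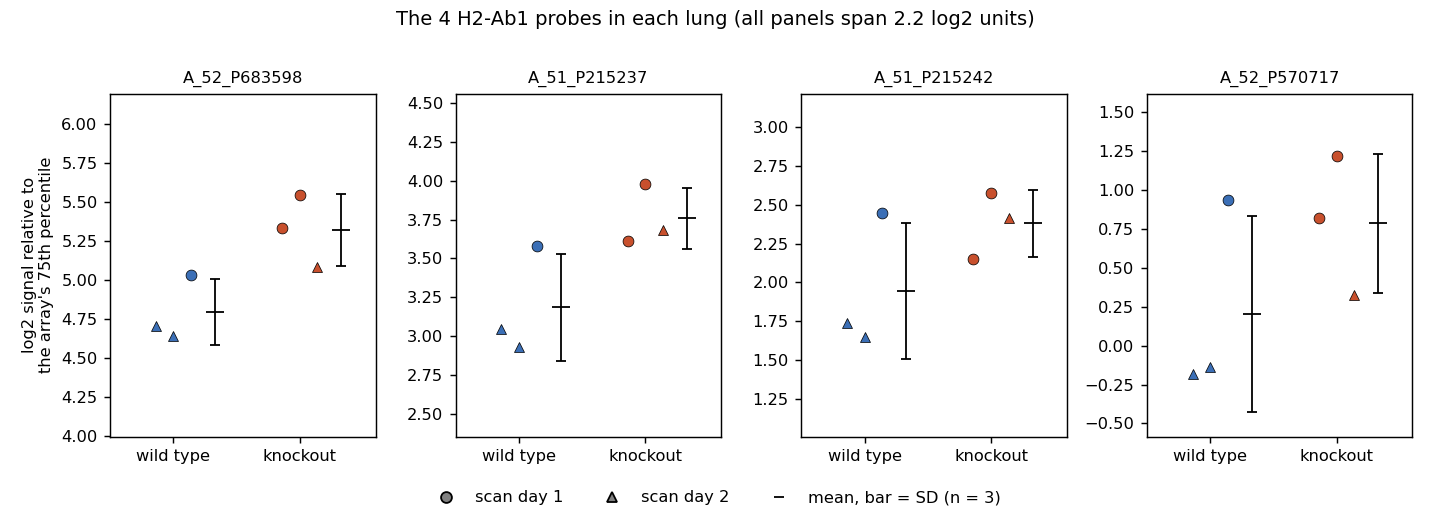
Log2 signal of the 4 H2-Ab1 probes in each lung, relative to the array's 75th percentile (blue, wild type; red, knockout; circles, scan day 1; triangles, scan day 2; black bars, mean and SD of 3 lungs). The knockout mean is higher at all 4 probes, by 0.44 to 0.58, and at A_52_P570717 the day 1 lungs lie at 0.82 to 1.22 and the day 2 lungs at -0.18 to 0.33.

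H2-Eb1 encodes the beta chain of the second class II molecule, I-E, and has 1 probe, spanning chr17:32392430-32392891. Wild type 11, 12 and 13 had log2 signals of 3.03, 2.86 and 3.31, and knockout 1, 11 and 12 had 3.38, 3.58 and 3.66. Every knockout lung was above every wild-type lung, with the closest pair, wild type 13 and knockout 1, on the same slide. The difference was 0.47 (SE 0.19), a 1.39-fold ratio (95% interval 1.01 to 1.91), at an unadjusted p of 0.0463 in the limma fit. Within day 1 the value was 0.17 and within day 2 0.72, and 0.44 (SE 0.19) with the block. H2-Ea, the alpha chain of I-E, which some mouse haplotypes do not express, was not well above background on any of the 6 arrays, and so has no difference to compare.

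Among the loading factors, H2-DMb1 had log2 signals of 3.01, 2.84 and 2.83 in wild type 11, 12 and 13 and 3.20, 3.43 and 3.11 in knockout 1, 11 and 12. Its groups did not overlap, and the difference of 0.35 (SE 0.17, 1.28-fold, 95% interval 0.961 to 1.69) was, as for Cd74, larger on day 1 (0.48) than on day 2 (0.18). H2-DMa, the alpha chain of the same H2-DM pair, had 0.51, 0.41 and 0.49 in wild type 11, 12 and 13 and 0.51, 0.94 and 0.77 in knockout 1, 11 and 12. Knockout 1 lay within the wild-type range here, as it did for H2-Aa. The H2-DMa difference was 0.27 (SE 0.18), with 0.23 and 0.31 within days 1 and 2.

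The H2-DMb2 gene is a neighbouring copy of H2-DMb1 that encodes an alternative beta chain of H2-DM. Its brightest probe read 0.49, 0.34 and 0.91 in wild type 11, 12 and 13 and 0.960, 1.38 and 0.999 in knockout 1, 11 and 12. No lungs overlapped between groups, although wild type 13 and knockout 1 were close, and the difference was 0.53 (SE 0.22, 1.45-fold, 95% interval 0.992 to 2.11). The array files list transcripts of both H2-DMb2 and H2-DMb1 for this probe, so the 2 genes cannot be told apart by it, and it is printed for that reason.
A_52_P146877: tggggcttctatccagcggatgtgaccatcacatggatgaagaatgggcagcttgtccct

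It lies at chr17:32228917-32228976 on the plus strand. The other H2-DMb2 probe, listed for H2-DMb2 transcripts without H2-DMb1, had a difference of 0.39 (SE 0.26). Its log2 signals were -3.53, -3.12 and -2.72 in wild type 11, 12 and 13 and -2.66, -2.95 and -2.59 in knockout 1, 11 and 12. Knockout 11 was below wild type 13 there, so the groups overlapped at the probe for H2-DMb2 alone.

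H2-Oa and H2-Ob form H2-DO, the partner that restrains H2-DM and is made chiefly in B cells and some dendritic cells. H2-Oa had log2 signals of -1.64, -1.48 and -1.12 in wild type 11, 12 and 13 and -0.40, -1.16 and -0.85 in knockout 1, 11 and 12. Knockout 11 lay just under wild type 13, so the groups overlapped, and knockout 1 was the highest lung. The difference was 0.61 (SE 0.26, 1.53-fold, 95% interval 0.983 to 2.37), and its second probe gave 0.58 (SE 0.29). H2-Ob read -3.25, -3.14 and -2.86 in wild type 11, 12 and 13 and -2.62, -2.81 and -2.51 in knockout 1, 11 and 12. Here the groups did not overlap, with a difference of 0.44 (SE 0.19, 1.35-fold, 95% interval 0.991 to 1.85) that was 0.14 within day 1 and 0.69 within day 2. With normexp it was 0.27 and with the authors' values 0.25. The lungs were ordered differently for the 2 genes, since knockout 1 was highest for H2-Oa and knockout 12 for H2-Ob.

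Cd74, the invariant chain, differed from the other members in size. Its log2 signals were 5.80, 5.48 and 5.34 in wild type 11, 12 and 13 and 5.49, 5.86 and 5.49 in knockout 1, 11 and 12. The groups overlapped, and the difference was 0.07 (SE 0.21, 1.05-fold, 95% interval 0.743 to 1.48), with 0.33 within day 1 and -0.15 within day 2. Its sign depended on the scaling, being -0.09 with quantile normalization and -0.07 with the authors' values. Before scaling, the processed signal of Cd74 was nearly the same on 5 arrays, 97633, 100615 and 100717 in wild type 11, 12 and 13 and 100376 and 99490 in knockout 1 and 11, and 51538 in knockout 12. On those 5 arrays the scaled value therefore fell as the array's 75th percentile rose, from 5.86 in knockout 11 (75th percentile 1718) to 5.34 in wild type 13 (2481). The scanner's saturation level was at least 6.64 times the mean spot signal of Cd74 on every array. Whether the probe responds in proportion at this brightness was not tested.

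The ratio of a presenting chain to Cd74 asks whether the chains and the invariant chain moved apart. The log2 ratio was higher in the knockout by 0.46 for H2-Ab1, by 0.40 for H2-Eb1 and by 0.33 for H2-Aa. In an exact two-sided permutation test of 3 against 3 lungs, whose smallest possible p is 0.1, the p-values were 0.2, 0.3 and 0.2, and each was 0.3 after Benjamini-Hochberg adjustment over the 3 ratios. The ratio of H2-Ab1 also differed between days, by -0.53 for day 2 minus day 1. Because the unscaled Cd74 signal was nearly constant on 5 arrays, as given above, these ratios largely follow the unscaled signal of the chains there and add little to it.

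The master regulator Ciita had the widest spread of the members, with a range of 2.65 over the 6 lungs at its probe, chr16:10203747-10203806. It read -0.95, -0.61 and 1.06 in wild type 11, 12 and 13 and 1.22, 1.70 and -0.17 in knockout 1, 11 and 12. The high lungs were the 3 of scan day 1, whatever their genotype, and the low lungs the 3 of day 2. Without a block the difference was 1.08 (SE 0.69, 2.12-fold, 95% interval 0.664 to 6.76). With scan day as a block it was 0.51 (SE 0.21, unadjusted limma p of 0.0553), with 0.40 on day 1 and 0.61 on day 2. Between the days Ciita fell by 1.73 (SE 0.21) from day 1 to day 2, at an adjusted p of 0.00941 (limma, genotype in the model). It was the only member of the 10 to pass that test, against 10.8% of all genes. Leaving out wild type 13 gave -1.63 at an adjusted p of 0.0870, and leaving out knockout 12 gave -1.84 at 0.0574, so either lung ended the call. The other 9 members differed between days by -0.36 to 0.14, and none of them passed.

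**Figure D4:**
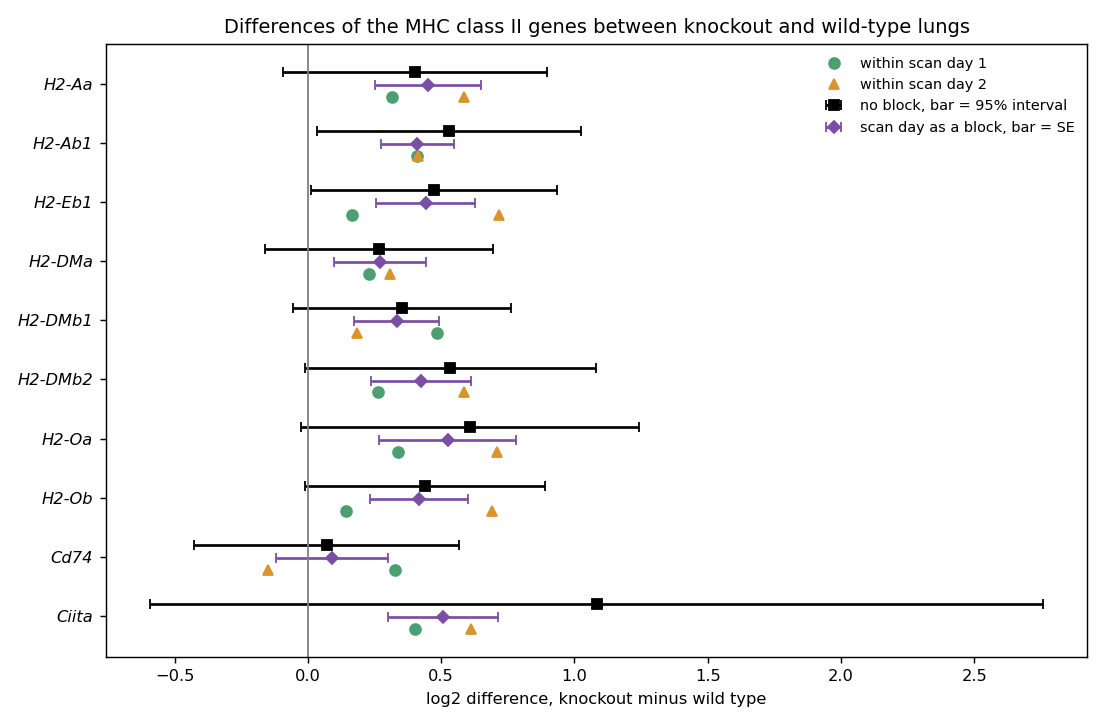
Log2 difference, knockout minus wild type, of each class II gene without a block (black squares, bars 95% intervals), with scan day as a block (purple diamonds, bars SE) and within scan day 1 (green circles) and day 2 (orange triangles). With the block Cd74 is at 0.09 and the other 9 genes are between 0.27 and 0.52, Ciita having come from 1.08 to 0.51.

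The genes that act with the class II set were read from lists in the same fit, and none of them passed the adjusted threshold. The regulators and the interferon gamma pathway, which hold the RFX, CREB and NF-Y subunits and the IRF factors, had 17 of 24 genes higher in the knockout and a median of 0.06. Nfya, a subunit of NF-Y that binds the Y box, differed by 0.40 (SE 0.31) but by 1.08 within day 1 and -0.29 within day 2. Irf4, a factor of B cells and dendritic cells, differed by -0.41 (SE 0.29), with -0.78 on day 1 and -0.03 on day 2. Proteases, trafficking and turnover genes had 12 of 18 higher and a median of 0.04. Cst3, an inhibitor of cathepsins, differed by 0.27 (SE 0.16) with no overlap between groups, but by 0.095 with quantile normalization, 0.12 with normexp and 0.11 with the authors' values. The tetraspanin Cd63 differed by 0.40 (SE 0.21), or by 0.27 with the block. With the block the medians of these lists were 0.09 and 0.15, against 0.03 for all genes. Within the days they were 0.28 and 0.19 on day 1 and -0.07 and 0.09 on day 2.

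Class I presentation, the parallel pathway for CD8 T cells, had 15 of 17 measured genes higher and a median of 0.21. The median was 0.36 within day 1 and 0.02 within day 2. H2-D1, a class I heavy chain, differed by 0.38 (SE 0.22) and its groups did not overlap, but quantile normalization gave 0.21. The immunoproteasome subunit Psmb9 differed by 0.33 (SE 0.20). Interferon gamma target genes, some of which are also class I genes, had 10 of 15 higher and a median of 0.22, with 0.58 within day 1 and -0.11 within day 2. Cxcl9, a chemokine induced by interferon gamma, differed by 0.47 (SE 0.16, unadjusted limma p of 0.0261), without overlap and by 0.56 and 0.51 within days 1 and 2, but by 0.28 with normexp and 0.30 with the authors' values. Costimulation genes and the CD4-side partners had 7 of 11 higher and a median of 0.03. Cd80, a ligand of CD28 on presenting cells, differed by -1.05 (SE 0.53), or by -0.65 with normexp. Lag3, a class II receptor of T cells, differed by -0.21 (SE 0.19). The class II median kept its direction within both days, as given above. So did the medians of class I and of the costimulation genes (0.09 on day 1 and 0.08 on day 2). The median of the interferon gamma targets changed sign between the days, as did that of the regulators. Differences between the lists were not tested.

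Markers of cells that carry class II were read in the same way. Of the B cell markers, 17 of 17 were higher in the knockout without the block, against 54.5% of all genes tested. Their median was 0.36 without the block and 0.27 with it (day 1 alone 0.07, day 2 alone 0.39). At the adjusted threshold 0 of them passed. Their summed linear signal, in units of the array's 75th percentile, was 9.66 to 12.5 in the wild-type lungs and 11.5 to 17.9 in the knockout lungs. Cd72, a B cell coreceptor, differed by 0.42 (SE 0.18) and Pou2af1, a B cell coactivator, by 0.47 (SE 0.25), both without overlap. Ebf1 went from 0.17 without the block to -0.43 with it, and was lower in the knockout within both days. Cd79a, Blk, Cd22, Fcer2a, Fcrla and Spib were lower in the knockout within day 1 only. Among 16 measured dendritic cell markers 11 were higher, at a median of 0.18 (-0.05 within day 1 and 0.49 within day 2) and sums of 11.9 to 13.5 in wild type and 11.5 to 16.1 in knockout. Ccr7, a homing receptor of mature dendritic cells, differed by 0.61 (SE 0.26). Fscn1, an actin bundler of mature dendritic cells, differed by 0.56 (SE 0.31), or by 0.34 with the block. The groups overlapped for both genes. The 5 lower markers, Cd209d, Itgax, Tlr9, Clec4n and Xcr1, differed by -0.34 to -0.13. The part of these cell types in the class II values was not tested.

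Of 19 macrophage and monocyte markers 7 were higher. Their median of -0.01 turned to 0.13 with the block (0.19 on day 1, 0.07 on day 2). The sums were 152 to 235 in wild type and 157 to 237 in knockout. Ly6c1 and Chil3, at log2 signals of 5.64 to 6.81, were the brightest of these markers. They weigh most in the sums, which say little of the other markers. Ccr2, a monocyte receptor, differed by -0.87 (SE 0.44), with -0.12 on day 1 and -1.71 on day 2. C1qc, a complement subunit of tissue macrophages, differed by 0.45 (SE 0.25), or by 0.29 with the block. Of 14 alveolar type 2 markers 10 were higher, at a median of 0.06 (0.17 with the block, 0.21 on day 1, 0.22 on day 2). Their sums were 622 to 790 in wild type and 729 to 1011 in knockout. Sftpc, the surfactant protein that defines these cells, differed by 0.45 (SE 0.21) without overlap and marks the samples as lung, at log2 signals of 7.74 to 8.70 over the 6 arrays. Other scalings brought its difference to 0.030 with quantile normalization, 0.098 with normexp and 0.10 with the authors' values. Lyz2, which alveolar type 2 cells share with macrophages, differed by 0.44 (SE 0.21), and by 0.15, 0.19 and 0.16 under the same 3 alternatives. Sftpc and Lyz2 are among the brightest markers of the alveolar type 2 list and weigh heavily in its sums. Those sums were not computed under the alternatives. T cells, the partners that class II molecules address, had 15 of 18 markers higher and a median of 0.19 (0.26 within day 1 and 0.19 within day 2). Among the higher ones were Cd3d at 0.50 (SE 0.19) and Cd3g at 0.42 (SE 0.20). The 3 lower ones were Cd3e at -0.20 (SE 0.38), Cd8b1 at -0.37 (SE 0.30) and Cd2 at -0.07 (SE 0.26), so the CD3 chains did not all go 1 way. Of 12 endothelial markers 10 were higher, at a median of 0.14 (0.04 with the block), with Emcn at 0.21 (SE 0.19) and Ednrb at 0.18 (SE 0.21). Pan-leukocyte markers went the other way, with 3 of 10 higher and a median of -0.40, at 0.29 within day 1 and -0.75 within day 2. Vav1 and Itgb2, a signalling factor and an integrin of all leukocytes, each differed by -0.48 (SE 0.36 for both), and with the block by -0.27 and -0.25.

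**Figure D5:**
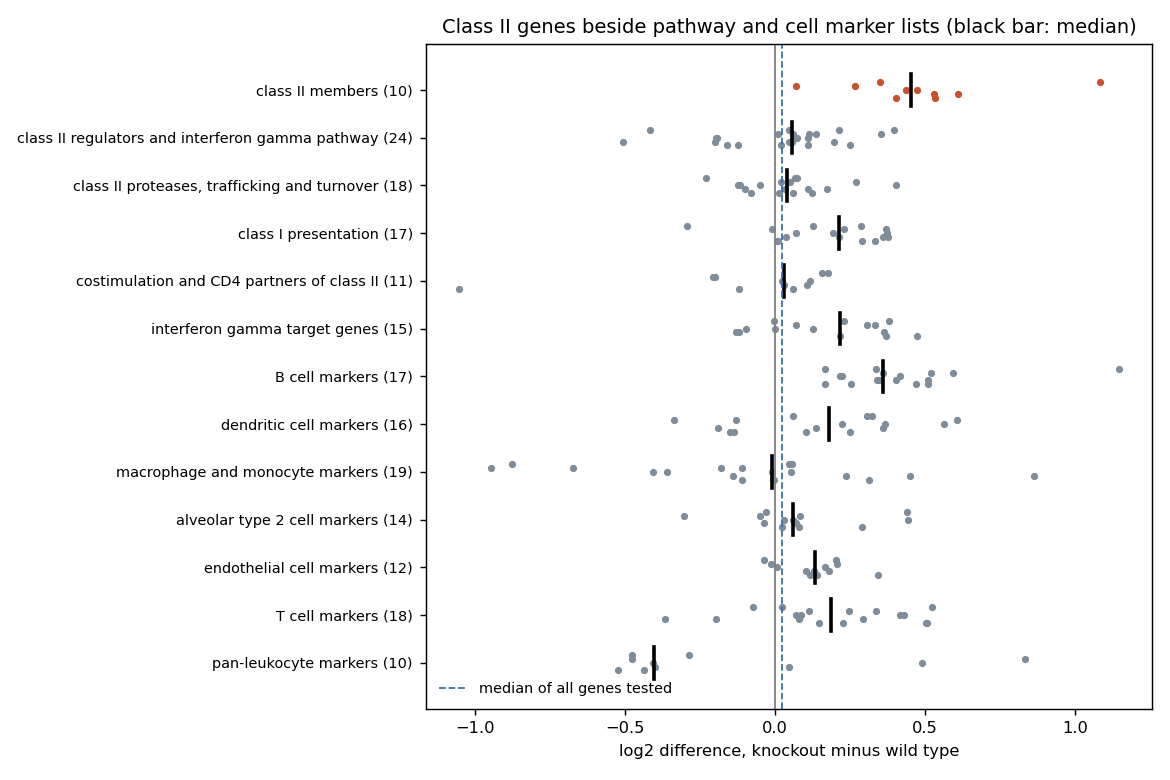
Log2 difference, knockout minus wild type, of every measured gene in each list (points; number of genes in brackets; red, class II members; grey, other lists), with the list's median as a black bar and the median of all genes tested (0.02) as a dashed line. The class II members have a median of 0.46, the B cell markers 0.36 and the pan-leukocyte markers -0.40, and no gene shown passed the adjusted threshold.

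How the members followed each other was read from their values after centring within scan day, over 6 arrays and as a description only. Against the mean of H2-Aa, H2-Ab1, H2-Eb1 and Cd74, Pearson's r was 0.98 for H2-DMb2, 0.96 for H2-DMa, 0.88 for H2-DMb1 and 0.82 for Ciita. H2-Oa (0.28) followed it least, then Cd74 (0.53), although itself a part of that mean, and H2-Ob (0.58). Among 11402 other genes eligible by their spread, 205 reached an r of 0.9, over 6 arrays whose values share scaling and genotype. Among the 8 most alike were Abhd16a (0.990), Rps19, Ctsh, Ift43, Rfc2, Wfdc2 and Gstm1, of which Gstm1 had the lowest r (0.981). Of these Ctsh, a lysosomal cathepsin, also stands in the list of proteases.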

How the data were processed

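Total RNA of 6 lungs was amplified, labelled with Cy3 and hybridised in 1 colour to Agilent 014868 arrays, per the labels. Feature Extraction software of Agilent wrote the deposited scanner files, in version 9.5.1.1 by their headers and 9.1 by the submitters' processing notes. They hold an intensity per spot (the processed signal is background-subtracted and detrended), flags and positions in mm7, per the file headers. The authors' series matrix holds log2 intensities, by their values, and the sources used here do not give its scaling.

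Of 41174 probes, 30 flagged on an array were left out. The processed signal was put on the log2 scale and each array's 75th percentile subtracted. A gene was its brightest probe by mean processed signal, out of those well above background on 3 or more arrays. RefSeq names (GRCm38.p6) were found for 32719 probes, and 8455 kept the array's name. Groups were compared with limma 3.58.1 (R 4.3.3; eBayes after lmFit, no covariates, two-sided p adjusted by Benjamini-Hochberg over 20246 genes), which was tested on simulated data. Within a day 1 group has 1 array, assumed to vary like the others. Members of lists are given by counts and medians. Named were all members, H2-Ea, Rtn4, up to 4 genes a list with the smallest p (2 were printed), and the 8 genes most like the members' mean among those with an SD of at least 0.15 after centring within day (1 of them is not reported here). Further list genes were named for going the other way or for weighing most in a sum. The members and lists were chosen with earlier results of these data known. Figures used matplotlib 3.10.9.

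Alternatives covered quantile normalization, normexp background correction (offset 50), median scaling, the authors' values, filters, the mean of probes, scan day, slide or animal number as a block, each day alone, array weights, trended variance and leaving out each array. Those combining scan day as a block with another choice were chosen after seeing the data.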

Additional observations from a re-analysis of the deposited data

How the results depend on the processing

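Under all 31 alternatives 9 members kept a difference above 0, and no member was called between genotypes. The median of all 10 members lay between 0.32 and 0.59. Cd74 changed sign, at -0.095 with quantile normalization, -0.074 with normexp, -0.066 with the authors' values, -0.024 with slide as a block, -0.15 on day 2 alone and -0.099, -0.066 and -0.054 with scan day as a block and quantile normalization, normexp or the authors' values. Leaving out each array it ranged from -0.053 to 0.20, and with the day block as well from -0.15 to 0.33. Genes called between genotypes, 0 in the reported fit, were 1 with normexp, the authors' values or trended variance, 2 with median scaling or array weights, 0 to 1 without each array, and 1 with the day block and normexp or the authors' values. Under median scaling 46.2% of all genes were higher in the knockout, under quantile normalization 46.7%, under normexp 47.3% and with the authors' values 47.1%, against 54.5% in the reported fit. Genes called between scan days were 3858 with median scaling, 1011 with array weights, 3313 without genotype and 631 to 2420 without each array, and members called were 0 to 1. Among the list genes named for a small p, Vav1 and Itgb2 turned to 0.22 and 0.13 on day 1 alone. Nfya, Psmb9 and Ednrb turned to -0.29, -0.052 and -0.15 and Lag3 to 0.083 on day 2 alone.

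The animal numbers 11 and 12 occur in both groups. As a replicate block they gave 0 called genes, a members' median of 0.56 and -0.079 for Ednrb. Deviations of same-numbered lungs correlated at -0.25 for number 11, scanned on different days, and 0.42 for number 12, scanned on 1 day, and the numbers were not taken as pairing animals. The limits are 3 lungs a group, scan days unbalanced between genotypes, 1 probe for most members and whole-lung RNA without cell counts.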
